A study of Homo sapiens with 24 samples.

Results

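The replication-dependent histone genes encode the canonical histones H1, H2A, H2B, H3 and H4. Their mRNAs were followed here in poly(A)-enriched RNA from nuclei and cytoplasm of human RKO cells in which the ERH gene was disrupted. A list of 57 such genes was taken by symbol, and the 39 genes with a mean of at least 10 counts over the 24 libraries are the members described, of 62754 genes in the tables. They comprised 3 of 5 listed H1 genes, 9 of 13 H2A, 13 of 16 H2B, 6 of 10 H3 and 8 of 13 H4 genes, with 33 members on chromosome 6 and 6 on chromosome 1. Among the 18 listed genes under the limit, 6 had 0 counts in all libraries. Just inside the limit stood H2BC6 with a mean of 10.25 counts and H3C2 with 11.8, and just outside H2AC4 with 8.67 and H2AC12 with 8.08.

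Each of the 8 groups had 3 libraries labelled as biological replicates. Cells carried a guide that targets ERH (sgERH) or the safe-harbour site AAVS1 (sgAAVS1, the control guide), were treated with cycloheximide (CHX, 25 µg/mL) or its solvent DMSO for 4 h, and were split by mild detergent lysis into a nuclear and a cytoplasmic fraction. All groups shared the doxycycline-inducible Cas9, switched on with 100 ng/mL doxycycline for 5 days, in 1 single-cell-derived clone of RKO, a diploid colon carcinoma line. Guide-carrying cells were sorted in bulk, so an sgERH culture is a mixture of edited alleles. The design asked what ERH does to mRNAs in each compartment, with CHX, which stops translation, holding back decay that depends on it. The p-values take in no more than the spread among libraries so labelled.

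As background, most replication-dependent histone mRNAs have no poly(A) tail and end just after a conserved stem-loop in the 3′ untranslated region. SLBP binds this stem-loop, the U7 snRNP and the CPSF endonuclease cut behind it, and the mRNAs are made in S phase and destroyed when DNA synthesis stops, by a decay pathway that needs translation and UPF1. Poly(A) selection therefore leaves most of this mRNA behind, and what it captures are copies with an A-rich or polyadenylated end. Some of the genes also have a polyadenylation signal beyond the stem-loop. ERH is a small conserved protein that associates with splicing, RNA export and RNA surveillance factors.

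A stem-loop was found in all 57 listed genes, 22 to 67 bases after the stop codon with a median of 35. The stem read GGCTCT and AGAGCC around 4 loop bases in 42 genes of the H1, H2A, H2B and H3 classes, and GGCCCT and AGGGCC in the 13 H4 genes. The remaining 2 were the H2A genes H2AC11 and H2AC15, which each had 1 G-U wobble pair. These are the elements the rest of the text refers to when it speaks of the end of a histone mRNA, from the GRCh38 genome with the GENCODE annotation, 5′ to 3′ on the gene's strand, with the stem in capitals:
H1-2, chr6:26055739-26055764, minus strand: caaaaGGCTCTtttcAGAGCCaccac
H2AC6, chr6:26124664-26124689, plus strand: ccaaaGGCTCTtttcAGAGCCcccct
H2AC18, chr1:149842218-149842243, minus strand: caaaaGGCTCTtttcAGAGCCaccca
H2BC12, chr6:27146361-27146386, minus strand: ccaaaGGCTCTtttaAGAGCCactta
H3C6, chr6:26225591-26225616, plus strand: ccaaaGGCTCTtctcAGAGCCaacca
H4C8, chr6:26285126-26285151, minus strand: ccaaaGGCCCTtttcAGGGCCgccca
H4C15, chr1:149860764-149860789, minus strand: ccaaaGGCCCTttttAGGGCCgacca
H2AC11, chr6:27133510-27133535, plus strand: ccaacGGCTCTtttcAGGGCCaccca
H2AC15, chr6:27837880-27837905, minus strand: aaaaaGGTTCTtttcAGAGCCaccta
Either of the GGCTCT and GGCCCT hairpins lay within the last 40 bases of 68 of 252835 annotated transcripts (0.0269%).

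The annotation also gave longer forms. In 13 members, 24 transcripts ran 430 to 37155 bases of genome past the stem-loop, either reading through it (12 transcripts of 8 genes) or splicing it out (12 transcripts of 6 genes). H2AC6 had both kinds. The 13 genes were 1 H2A, 7 H2B, 2 H3 and 3 H4 genes and no H1 gene, and 12 of them also had a form that ends at the stem-loop. In 6 of them, 10 of the long transcripts were annotated as targets of nonsense-mediated decay, a pathway that also needs translation and UPF1. The polyadenylation signal AATAAA or ATTAAA lay in the last 40 bases of 15 of the 24 long transcripts, of 1 of the 38 member transcripts that end at the stem-loop, and of 34.5% of all annotated transcripts. The ends of long transcripts of the members named most below are shown. Each runs from 4 bases before the signal to the transcript's end or for at most 30 bases. The first signal is in capitals, and the stretch of H4C8 holds AATAAA again further on:
H2AC6, chr6:26139084-26139113, plus strand: aggtAATAAAaggtaatgcaaagggagagg
H2BC5, chr6:26171321-26171349, plus strand: aattAATAAAatctgcggagaattgtaaa
H2BC15, chr6:27855686-27855709, plus strand: ggcaAATAAAaatctgttcttaga
H3C6, chr6:26227448-26227473, plus strand: gtaaAATAAAagattactgaacagaa
H3C10, chr6:27811274-27811300, plus strand: actaAATAAAatctgtataatccccac
H4C8, chr6:26281065-26281094, minus strand: ttccAATAAAaggtgaataaaatcaggtca
H4C15, chr1:149859185-149859213, minus strand: tctgAATAAAgagcagaatgattggcgtc
These ends lie far from the stem-loops of the same genes. In H2AC6 (ENSG00000180573, chr6:26124145-26139116) the transcript with the signal ends 14432 bases of genome beyond the stem-loop.

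Library totals ran between 27849344 and 79450333 counts. ERH itself had 72.9, 86.9 and 59.4 counts per 1000000 (CPM) in sgERH cytoplasm with DMSO, against 137, 158 and 152 CPM in sgAAVS1 cytoplasm, and in nuclei with CHX the groups overlapped, with sgERH replicate 2 at 16.8 CPM above its 3 controls. ERH RNA is therefore no check on how that library was labelled. The epithelial markers KRT8, KRT18, EPCAM and CDX2 were present, KRT20 was at 0, and CDH1, LGR5 and VIL1 stayed under 1 CPM. Of genes that such a culture should lack, CD3E was at 0, PTPRC reached 0.249 CPM and CD68 59.1 to 393 CPM. Nuclear RNA markers (MALAT1, NEAT1 and KCNQ1OT1) summed to 8303 to 13774 CPM in nuclei and 294 to 594 CPM in cytoplasm. Mitochondrial RNA markers (MT-ND1, MT-ND4, MT-CO1 and MT-CYB) summed to 2316 to 4720 CPM in nuclei and 16450 to 37909 CPM in cytoplasm. In nuclei with DMSO they summed to 3940 to 4720 CPM in sgERH and 2851 to 3695 CPM in sgAAVS1 libraries. Their median log2 fold change of nucleus over cytoplasm in control cells was −3.36. The part of cytoplasmic carry-over in the nuclear histone values was not tested.

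Counts of single histone genes rest on estimation where copies are alike. In 10 of the 39 members at least 50% of all 31-base words occurred in another gene, with 100% for H2AC18 (shared with H2AC19) and H4C15 and 98.6% for H4C14, 93.0% for H4C12 and 92.5% for H4C11, and 71.0% for H2BC12. Exons of 7 members overlapped those of another gene, 3 on the same strand (H2AC6, H2AC7 and H2AC17) and 4 on the opposite one (H2BC4, H2BC6, H2BC18 and H4C8), where reads can be told apart only by strand. The strand setting of the counting was not given in the sources used here. The tests were therefore repeated with a gene's counts added to those of the gene that holds at least 50% of its words, a choice made after seeing the data, and the values for such pairs are given beside the named calls they touch.

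Summed over the 57 listed genes, histone mRNA made up 0.00424% to 0.0737% of counts in the group means. The summed level was 2591 ± 71.6 transcripts per 1000000 (TPM, which corrects for length) in sgAAVS1 cytoplasm with CHX and 562 ± 13.8 TPM with DMSO (SD, n = 3). In sgAAVS1 nuclei it was 1319 ± 86.4 TPM with CHX and 229 ± 40.9 TPM with DMSO. The sums here and below hold H2AC18 but not its copy H2AC19, which is outside the list. They therefore move with the split of reads between these copies. In sgAAVS1 nucleus DMSO replicate 2 the listed H2A genes summed to 32.2 TPM, and H2AC18 with H2AC19 to 52.1 TPM. In DMSO, sgERH cells had 846 ± 51.5 TPM in the cytoplasm, against 562 ± 13.8 TPM in sgAAVS1 cells, and 533 ± 12.6 TPM in nuclei, against 229 ± 40.9 TPM, without overlap in either fraction. With CHX the order differed, at 1936 ± 358 TPM in sgERH cytoplasm against 2591 ± 71.6 TPM in sgAAVS1 cytoplasm, and 1292 ± 175 TPM in sgERH nuclei against 1319 ± 86.4 TPM in sgAAVS1 nuclei, where the libraries overlapped. By mean TPM over all libraries the most abundant members were H2AC18 (195 TPM), the linker histone gene H1-2 (137), H2AC6 (130) and H2BC12 (122).

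**Figure D1:**
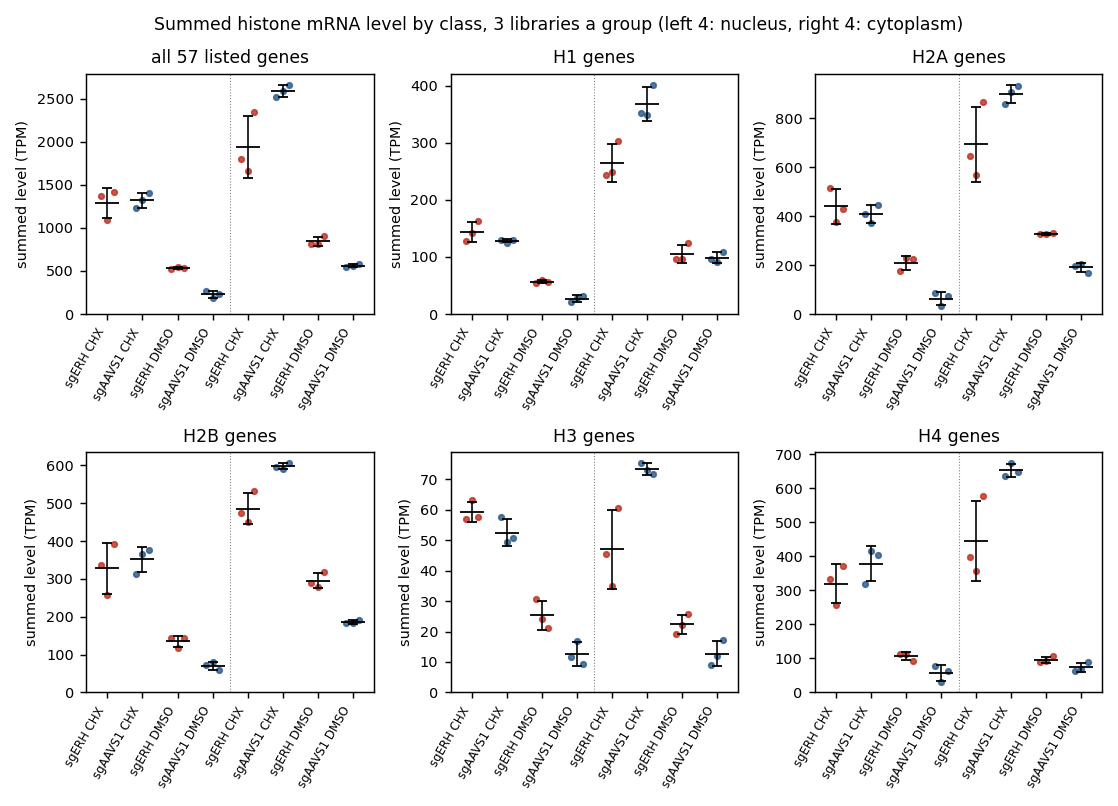
Summed TPM of the 57 listed genes and of each class (vertical axes, linear from 0) in the 8 groups, with 1 point per library and the mean ± SD as a bar, sgERH in red and sgAAVS1 in blue. The CHX groups stand highest in each fraction, and with DMSO the sgERH sum of all listed genes (846 TPM in cytoplasm, 533 in nuclei) stands above that of sgAAVS1 (562 and 229).

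Nucleus and cytoplasm were compared first in the control cells (sgAAVS1, DMSO). Most histone mRNAs were relatively lower in the nuclear fraction, while transcripts of a few genes with long forms were higher there. Of 39 members tested 23 were lower and 3 higher in nuclei, where 23.4% and 32.4% of all genes tested were called in these directions. The members' median log2 fold change was −1.86 and that of all genes 0.20. A call here and below is made where edgeR's quasi-likelihood test gave an adjusted p (Benjamini-Hochberg, over all genes tested) no higher than 0.05 and the log2 fold change was 1 or more in either direction.

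H1-2 had 3.79, 5.36 and 5.86 CPM in nuclei, against 34.1, 32.4 and 38.1 CPM in cytoplasm (log2 fold change −2.81, SE 0.12, edgeR adjusted p = 2.89e-17). H2BC12 had 1.44, 1.60 and 0.889 CPM in nuclei, against 14, 14.3 and 15.4 CPM in cytoplasm (−3.47, SE 0.20, edgeR adjusted p = 7.80e-15, and −3.47 summed with its partner ENSG00000274559). The mRNAs of both genes were thus below the cytoplasmic range in every nuclear library. H2AC18 had 4.70, 0 and 3.59 CPM in nuclei, against 24.1, 25.4 and 17.5 CPM in cytoplasm (−2.99, SE 0.39), and the H4 gene H4C11 had 0.323, 0 and 0 CPM in nuclei, against 2.67, 2.43 and 3.26 CPM in cytoplasm (−4.58, SE 0.64). The single nonzero nuclear value of H4C11 makes its size a matter of few reads, and summed with H4C12 the log2 fold change was −2.23 (SE 0.41, edgeR adjusted p = 2.52e-05). For H2AC18 with H2AC19 it was −2.71 (SE 0.10). In the other direction stood H3C6, an H3 gene, with 3.94, 4.64 and 5.04 CPM in nuclei, against 0.946, 1.09 and 1.46 CPM in cytoplasm (1.97, SE 0.15, edgeR adjusted p = 3.45e-12), and H2BC15, with 5.50, 3.95 and 4.35 CPM in nuclei, against 1.22, 1.52 and 1.02 CPM in cytoplasm (1.87, SE 0.17). The third gene called higher was H2AC15, under the 1 CPM mean set for giving values. H3C6 and H2BC15 are among the 13 members with long forms, of which 6 were called lower and 2 higher, against 17 lower and 1 higher of the 26 other members. In TPM sums the nucleus held 0.274 times the cytoplasmic level for H1 and 0.329 for H2A, but 0.776 for H4 and 0.985 for H3, as ratios of means. Shares of one fraction's RNA cannot say how many molecules a cell held in each.

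CHX raised histone mRNA in polyadenylated RNA of control cells in both fractions, in every class. In the cytoplasm 33 of 38 members tested rose and none fell (6 of the 38 averaged under 10 counts with DMSO), where 13.6% of all genes were called higher and 6.31% lower. The members' median log2 fold change was 2.37, against −0.02 over all genes. At an unadjusted p under 0.05 in edgeR 36 were higher (32.2% of all genes) and 0 lower, and DESeq2 called 34 higher and 0 lower. In nuclei 27 of 34 members tested rose and none fell (0 lower also at an unadjusted p under 0.05 and in DESeq2, which called 26 higher), where 14.4% and 10.8% of genes were called higher and lower. The nuclear median was 2.37, against 0.01 over all genes. In 17 of these 34 nuclear members the DMSO libraries averaged under 10 counts, so many entered the test through their CHX libraries, and the count is a description.

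H4C15, an H4 gene, had 91.8, 72.1 and 95.0 CPM in cytoplasm with CHX, against 1.77, 2.97 and 2.04 CPM with DMSO (log2 fold change 5.24, SE 0.22, edgeR adjusted p = 2.74e-12). Summed with its near-identical copy H4C14 the levels were 144 ± 7.09 CPM with CHX and 7.32 ± 1.48 CPM with DMSO, and these groups did not overlap either (4.31, SE 0.19). The linker histone gene H1-3 had 4.94, 5.03 and 7.08 CPM with CHX, against 0.140, 0.113 and 0.218 CPM with DMSO (5.19, SE 0.30). H2AC6 had 178, 175 and 196 CPM with CHX, against 10.4, 10.3 and 13.3 CPM with DMSO (4.02, SE 0.14, edgeR adjusted p = 5.36e-13). For these genes all CHX libraries lay far above all DMSO libraries. H4C8, an H4 gene, had 32.0, 30.1 and 33.8 CPM with CHX, against 2.15, 2.42 and 2.34 CPM with DMSO (3.79, SE 0.10), and H2AC7 had 2.95, 2.29 and 2.46 CPM, against 0.140, 0.170 and 0.145 CPM (4.06, SE 0.57), with 84.6% of its words shared with ENSG00000282988 (4.84 for the sum). Of the 4 most abundant members H1-2, H2AC18 and H2BC12 moved less than H2AC6. H1-2 had 93.3, 93.6 and 103 CPM with CHX, against 32.5, 30.8 and 36.1 CPM with DMSO (1.54, SE 0.09), while the log2 fold change was 1.30 for H2AC18 (1.15 with H2AC19) and 1.09 for H2BC12. The 5 members tested but not called were H2AC13, H2AC20, H2BC9, H2BC13 and H4C11 (1.00 and called in the sum with H4C12), and the smallest log2 fold change among all 38 was 0.31.

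In nuclei H2AC6 had 127, 132 and 139 CPM with CHX, against 5.32, 6.00 and 5.95 CPM with DMSO (log2 fold change 4.53, SE 0.12, edgeR adjusted p = 9.06e-15). H1-3 was nearly unseen without CHX, with 97, 74 and 105 counts in the CHX nuclei and 1, 2 and 0 counts in the DMSO nuclei. Pooled, that is a ratio of 100 with an exact 95% interval of 33.9 to 488, which covers counting error only. H4C8 had 28.2, 29.8 and 34.8 CPM with CHX, against 3.02, 2.56 and 2.08 CPM with DMSO (3.59, SE 0.18), and H4C15 44.6, 38.2 and 46.4 CPM, against 5.88, 4.37 and 1.70 CPM (3.43, SE 0.27, and 3.39 with H4C14). In both H4 genes the lowest CHX library was above the highest DMSO library. H4C11 had 0.656, 2.06 and 1.88 CPM with CHX, against 0.342, 0 and 0 CPM with DMSO (3.65, SE 0.84, edgeR adjusted p = 0.00111). Its pair sum with H4C12 had 1.69, 3.00 and 2.42 CPM with CHX, against 0.808, 0.102 and 1.07 CPM with DMSO, also without overlap (1.83, SE 0.53, edgeR adjusted p = 0.00667).

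Members with a long form had a median log2 response to CHX of 3.03 in the cytoplasm (12 of 12 tested called higher) and 2.90 in nuclei (12 of 13). Members without one had medians of 1.98 (21 of 26) and 1.97 (15 of 21). The difference between these groups of genes was not tested. A difference of the response between fractions was called for few members. The differences ran from −3.52 to 5.04, and 17 of the 34 members tested in nuclei averaged under 10 counts with DMSO. A missing call therefore does not show an equal response. An interaction term over all 24 libraries called 1 of 39 larger and 3 smaller in nuclei, shares below those of all genes (4.47% and 10.2%). H4C15 rose less in nuclei than in cytoplasm (difference of log2 fold changes −1.96, SE 0.37, edgeR adjusted p = 8.37e-05, and −1.05, edgeR adjusted p = 0.00124, with H4C14), as did H3C6 (−1.35, SE 0.19, edgeR adjusted p = 1.86e-06) and H2AC15. H4C11 rose more in nuclei (2.61, SE 0.81, edgeR adjusted p = 0.0111), but summed with H4C12 the difference was 0.70 and not called (edgeR adjusted p = 0.352), which left 0 members larger in nuclei. The members called larger in nuclei numbered 2 without sgAAVS1 cytoplasm DMSO replicate 1, sgAAVS1 nucleus DMSO replicates 2 or 3 or sgAAVS1 nucleus CHX replicate 1.

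**Figure D2:**
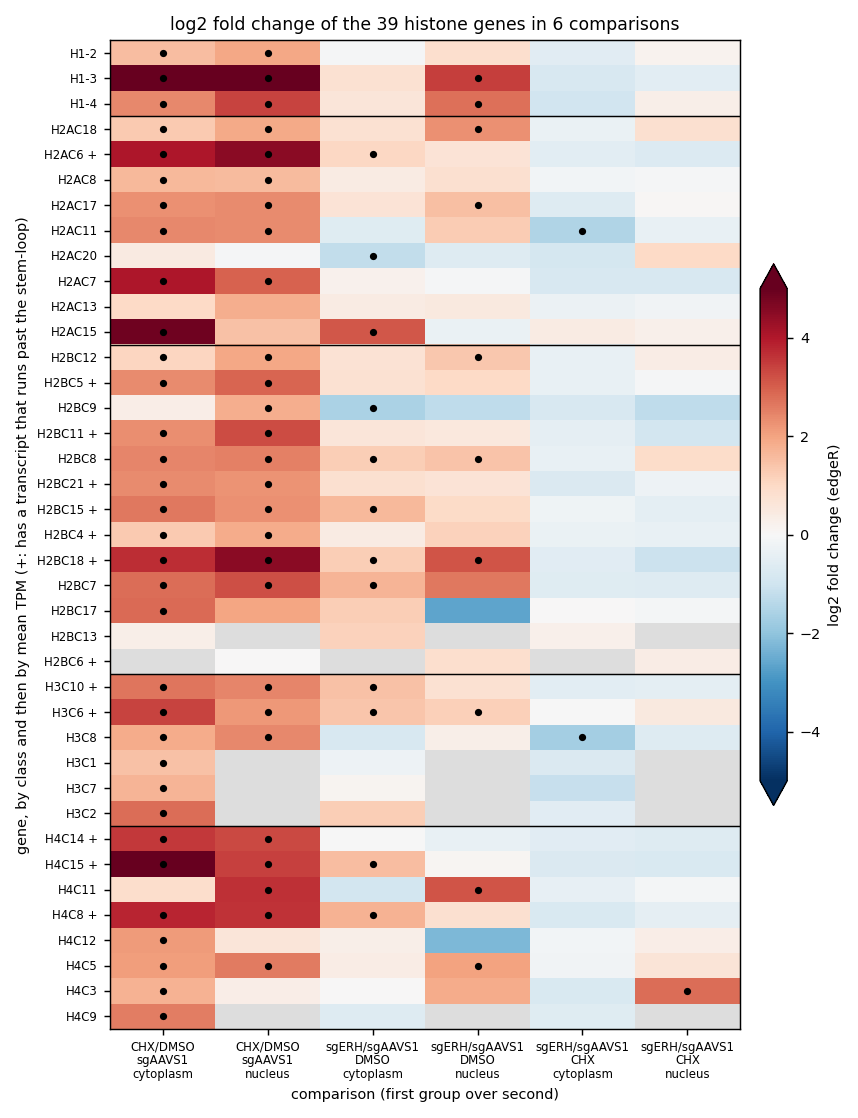
Log2 fold change (colour, saturating at 5 in either direction) of the 39 members (rows) in 6 comparisons (columns), with a black dot where a change was called, grey where a gene was not tested, and a plus sign after genes with an annotated transcript past the stem-loop. The CHX columns are positive almost throughout (33 and 27 calls), while the ERH columns with CHX hold 2 calls lower in cytoplasm and 1 higher in nuclei.

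With DMSO, loss of ERH raised a minority of histone mRNAs in the cytoplasm and lowered 2 genes. Of 38 members tested, 6 of which averaged under 10 counts in sgAAVS1 cells, 10 were higher and 2 lower in sgERH cells, where 9.30% and 2.16% of all genes tested were called. The members' median log2 fold change was 0.66, against 0.04 over all genes. In 18 of the 38 every sgERH library was above every sgAAVS1 library (30.9% of all genes), and in 4 every one was below (30.4%). In bulk RNA fewer cells that express a gene and less of its RNA per cell cannot be told apart.

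H4C8 had 8.15, 7.71 and 7.47 CPM in sgERH cytoplasm, against 2.15, 2.42 and 2.34 CPM in sgAAVS1 cytoplasm (log2 fold change 1.75, SE 0.11, edgeR adjusted p = 1.36e-09). H2BC15, an H2B gene, had 3.93, 3.48 and 3.62 CPM in sgERH cells, against 1.17, 1.44 and 0.963 CPM in sgAAVS1 cells (1.62, SE 0.17). H3C10, an H3 gene, had 7.81, 7.73 and 9.18 CPM in sgERH cells, against 2.97, 2.46 and 3.64 CPM in sgAAVS1 cells (1.46, SE 0.14). In these 3 genes, which stand in 3 core histone classes, the sgERH libraries were about level with each other and clear of the controls. H3C6 had 2.63, 3.12 and 2.99 CPM in sgERH cells, against 0.902, 1.03 and 1.38 CPM in sgAAVS1 cells (1.40, SE 0.16), and H2AC6 21.9, 21.1 and 26 CPM, against 10.4, 10.3 and 13.3 CPM (1.03, SE 0.14, edgeR adjusted p = 1.05e-05). H4C15 had 8.30, 4.41 and 6.95 CPM in sgERH cells, against 1.77, 2.97 and 2.04 CPM in sgAAVS1 cells (1.54, SE 0.23). Its sum with H4C14 was 11.1, 9.96 and 13.4 CPM, against 6.42, 6.51 and 9.03 CPM, still without overlap, but the log2 fold change of the sum was 0.67 (SE 0.19, edgeR adjusted p = 0.0066), under the fold limit, so the call of H4C15 was lost. The other genes called higher were H2AC15, H2BC7, H2BC8 and H2BC18, all under a mean of 1 CPM. H2AC7, not called alone, was called higher when summed with ENSG00000282988 (1.28, edgeR adjusted p = 3.64e-05).

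Going the other way, H2BC9 had 1.20, 1.23 and 1.26 CPM in sgERH cells, against 3.34, 4.53 and 3.2 CPM in sgAAVS1 cells (log2 fold change −1.59, SE 0.17, edgeR adjusted p = 6.82e-07). H2AC20 had 0.493, 0.773 and 0.845 CPM in sgERH cells, against 1.29, 1.88 and 1.78 CPM in sgAAVS1 cells (−1.24, SE 0.25). Neither has an annotated long form, and in both the groups were apart. Among the most abundant members H1-2 had 29.2, 29.5 and 35.6 CPM in sgERH cells, against 32.5, 30.8 and 36.1 CPM in sgAAVS1 cells (−0.07, SE 0.09, edgeR adjusted p = 0.51), so the groups overlapped. H2AC18 with 0.75 and H2BC12 with 0.73 on the log2 scale passed the adjusted p but not the fold limit. Of members with a long form 7 of 12 tested were called higher (median 1.13) and of those without 3 of 26 (median 0.38), a difference that was not tested. The 7 include H4C15, whose call was lost in the pair sum. Of members with a long form 0, and of those without 6, averaged under 10 counts in sgAAVS1 cells, so these sets also differ in depth. By class, TPM sums in sgERH over sgAAVS1 cytoplasm had ratios of 1.07 for H1, 1.72 for H2A, 1.59 for H2B, 1.75 for H3 and 1.30 for H4.

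Other RNAs moved beside these changes. Nuclear marker RNA in the cytoplasmic fraction summed to 570 to 594 CPM in sgERH libraries, against 313 to 377 CPM in sgAAVS1 libraries, with 2 of the 3 markers called higher. Of 25 genes of the G1/S transition and S phase, in which histone mRNA is made, 11 were lower and 0 higher in sgERH cytoplasm. Of all genes 2.16% and 9.30% were, and the list's median log2 fold change was −0.93, against 0.04 over all genes. Among the lower genes were the replication licensing genes MCM3 (−1.70) and MCM5 (−1.25), GINS2 (−1.31) and the polymerase gene POLA1 (−1.22). The summed level of the 25 genes was 2479 to 2690 CPM in sgERH cells and 4979 to 5057 CPM in sgAAVS1 cells. The part of either in the histone changes was not tested, and the histone and S phase values went in opposite directions.

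**Figure D3:**
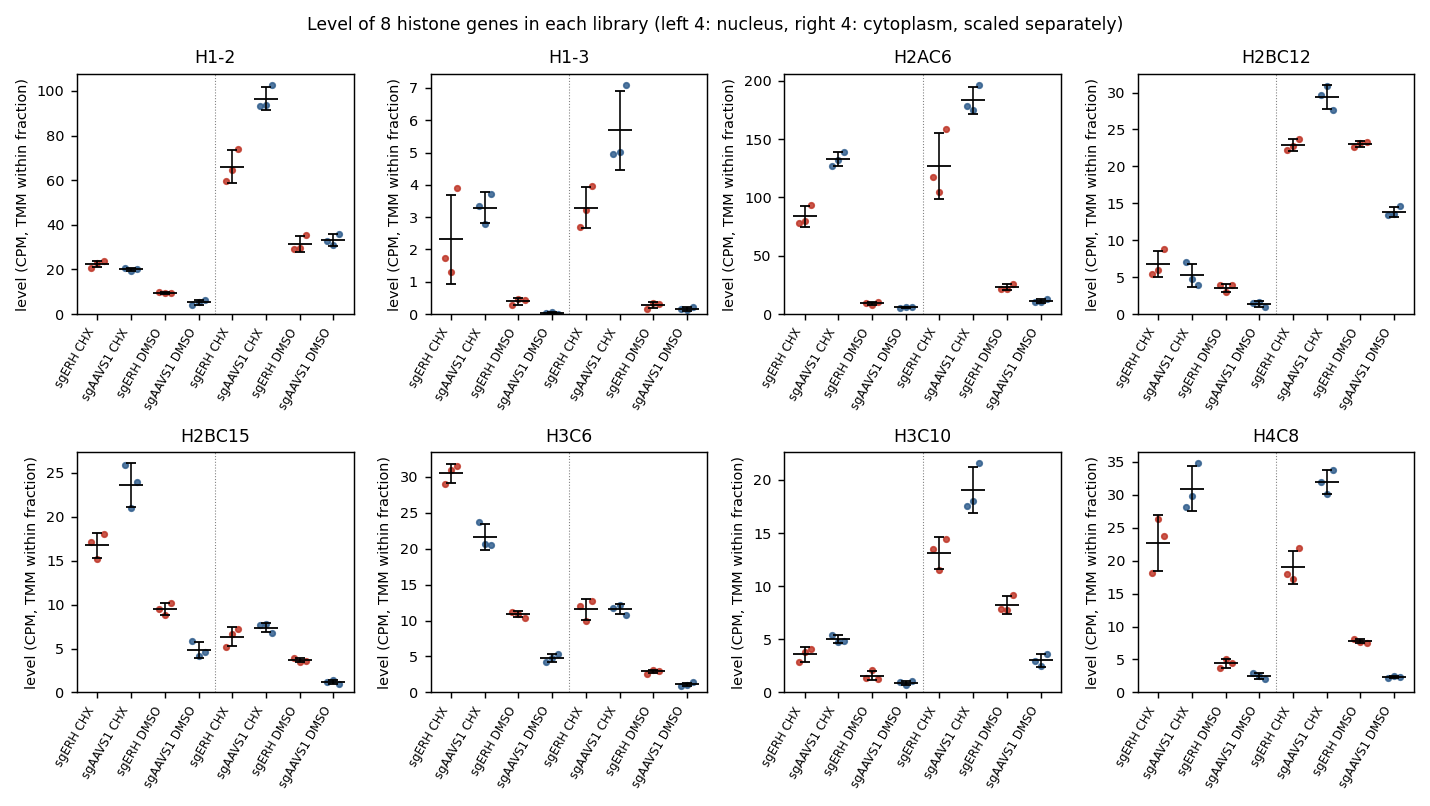
CPM per library (points) with mean ± SD (bars) of H1-2, H1-3, H2AC6, H2BC12, H2BC15, H3C6, H3C10 and H4C8 in the 8 groups, sgERH in red and sgAAVS1 in blue, each on its own linear axis from 0. With DMSO the sgERH points of H4C8 in cytoplasm (7.47 to 8.15 CPM) stand above those of sgAAVS1 (2.15 to 2.42), and with CHX below them.

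In nuclei with DMSO, members of all 5 classes were called higher with loss of ERH and none was called lower. Values were negative in 7 members, the lowest being −2.64 in an H2B gene. Of 34 members tested 10 were higher, where 4.77% of all genes were, and 0 were lower, where 1.73% were (1 at an unadjusted p under 0.05 in edgeR, as were 21.7% of all genes, and 0 called by DESeq2). The members' median log2 fold change was 0.86, against 0.03 over all genes. In 17 of the 34 the sgAAVS1 libraries averaged under 10 counts, so that the count is again a description. Of the genes called, 8 were among the 21 members tested that have no long form and 2 among the 13 that have one.

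H1-3 had 0.264, 0.467 and 0.447 CPM in sgERH nuclei, against 0.0311, 0.0682 and 0 CPM in sgAAVS1 nuclei (log2 fold change 3.44, SE 0.74, edgeR adjusted p = 0.00143). In counts these were 9, 20 and 19 against 1, 2 and 0, a pooled ratio of 13.3 with an exact 95% interval of 4.27 to 66.5. The linker histone gene H1-4 had 0.674, 1.45 and 1.04 CPM in sgERH nuclei, against 0.155, 0.0341 and 0.277 CPM in sgAAVS1 nuclei (2.74, SE 0.60, edgeR adjusted p = 0.00173). Both linker histone genes were thus apart between the guides at low levels. H2AC18 had 12, 15.3 and 15.2 CPM in sgERH nuclei, against 4.97, 0 and 3.77 CPM in sgAAVS1 nuclei (2.27, SE 0.54, edgeR adjusted p = 0.00329). Summed with H2AC19, with which it shares all its words, the levels were 171, 190 and 176 TPM in sgERH nuclei, against 50.8, 52.1 and 57.2 TPM in sgAAVS1 nuclei, so the library with 0 for H2AC18 did not stand apart in the sum. DESeq2 did not call H2AC18 alone (adjusted p = 0.0944), while the sum had a log2 fold change of 1.65 (SE 0.13, edgeR adjusted p = 4.44e-08). H2BC12 had 3.87, 2.92 and 3.88 CPM, against 1.52, 1.67 and 0.934 CPM (1.36), and H2AC17 0.997, 0.864 and 0.730 CPM, against 0.342, 0.136 and 0.415 CPM (1.52, SE 0.47, edgeR adjusted p = 0.0171). H2AC17 overlaps exons of H3C12 on the same strand (1.32 for the sum, edgeR adjusted p = 0.0181). Without sgAAVS1 nucleus DMSO replicate 2, H2AC17 stood at 1.18 with an edgeR adjusted p of 0.0743.

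H4C11 had 1.26, 1.38 and 0.565 CPM in sgERH nuclei, against 0.342, 0 and 0 CPM in sgAAVS1 nuclei (log2 fold change 3.13, SE 0.84, edgeR adjusted p = 0.00703), but its sum with H4C12 was 1.26, 1.38 and 0.895 CPM, against 0.808, 0.102 and 1.07 CPM, and overlapped (0.83, edgeR adjusted p = 0.247), so that call was lost. H3C6 had 11.2, 11 and 10.4 CPM in sgERH nuclei, against 4.17, 4.84 and 5.29 CPM in sgAAVS1 nuclei (1.19, SE 0.12, edgeR adjusted p = 7.81e-07), and was called higher in both fractions. H1-2 had 9.94, 9.41 and 9.21 CPM in sgERH nuclei, against 4.01, 5.59 and 6.16 CPM in sgAAVS1 nuclei, apart in all libraries though under the fold limit (0.86, edgeR adjusted p = 0.000135). H2AC6 (0.67) was under the fold limit too, and H4C15 (0.10, edgeR adjusted p = 0.826) overlapped. Ratios of TPM sums were 2.10 for H1, 3.35 for H2A, 1.92 for H2B, 2.01 for H3 and 1.87 for H4. The H2A sum holds H2AC18 without H2AC19, and so takes in the control library with 0 for H2AC18. For H2AC18 with H2AC19 the ratio was 3.35. The S phase list had 0 genes called in nuclei by edgeR or DESeq2. At an unadjusted p under 0.05 in edgeR 22 were lower, where 21.7% of all genes were, and 0 higher. Summed levels of the list were 2086 ± 17.4 CPM in sgERH and 2927 ± 74.3 CPM in sgAAVS1 nuclei.

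Whether ERH loss acted differently in the 2 fractions was tested by an interaction term, which called 5 members more positive and 3 more negative in nuclei, of 39 tested, where 1.43% and 4.05% of genes were called. More positive in nuclei were H4C11 (difference of log2 fold changes 3.99, SE 0.81, edgeR adjusted p = 0.000545), H1-3 (2.68, SE 0.87, edgeR adjusted p = 0.0229), H1-4 (2.09, SE 0.69, edgeR adjusted p = 0.0244), H2AC11 (1.83, SE 0.63, edgeR adjusted p = 0.0301) and H2AC18 (1.49, SE 0.51, edgeR adjusted p = 0.0302). H4C15 was more negative (−1.47, SE 0.39, edgeR adjusted p = 0.00606), as were H2AC15 and H2BC17. For the pair sums the differences were 1.59 for H4C11 with H4C12 (edgeR adjusted p = 0.0371), 1.00 for H2AC18 with H2AC19 (edgeR adjusted p = 5.14e-06) and −0.74 for H4C15 with H4C14, which was under the fold limit. H2AC18 alone was not called by DESeq2 (adjusted p = 0.241), with a length offset (edgeR adjusted p = 0.0527) or from only the libraries compared (edgeR adjusted p = 0.0514), nor was H1-3 from only the libraries compared (edgeR adjusted p = 0.0652). Leaving out 1 library at a time never ended the call of H4C11 alone. For the others, leaving out 1 of 12 libraries at a time ended the call in 4 cases for H1-3, 5 for H1-4, 6 for H2AC11, 6 for H2AC18 and 1 for H4C15, with edgeR adjusted p values up to 0.0835. The count of more positive members was 2 without sgERH cytoplasm DMSO replicate 1 or sgAAVS1 nucleus DMSO replicate 2, and 3 without sgAAVS1 cytoplasm DMSO replicates 1 or 3, sgAAVS1 nucleus DMSO replicate 1 or sgERH nucleus DMSO replicates 2 or 3. The count of more negative ones was 1 without sgAAVS1 nucleus DMSO replicate 1, where H4C15 stood at −1.07. The value of H2AC18 was 0.93 without sgAAVS1 nucleus DMSO replicate 2, the library in which it had 0 counts.

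Under CHX few members were called between the guides, and most values of sgERH cytoplasm lay below those of the controls. In the cytoplasm 0 of 38 members were higher in sgERH cells (5.79% of all genes were) and 2 were lower (1.43% of all genes), and the members' median was −0.56, against 0.02 over all genes. At an unadjusted p under 0.05 in edgeR 0 were higher (28.3% of all genes), DESeq2 called 0 higher and 2 lower, and in 22 of the 38 every sgERH library was below every sgAAVS1 library (29.1% of all genes). H2AC11 had 2.32, 1.42 and 2.34 CPM in sgERH cells, against 4.83, 6.04 and 6.16 CPM in sgAAVS1 cells (log2 fold change −1.49, SE 0.22, edgeR adjusted p = 3.41e-05). H3C8, an H3 gene, had 0.786, 0.431 and 0.979 CPM in sgERH cells, against 2.71, 2.47 and 1.94 CPM in sgAAVS1 cells (−1.69, SE 0.38, edgeR adjusted p = 0.00135). Both were clear of the controls. H2AC7, not called alone, was called lower when summed with ENSG00000282988 (−1.01, edgeR adjusted p = 1.27e-05). Short of the fold limit, H4C8 had 17.9, 17.2 and 21.9 CPM in sgERH cells, against 32.0, 30.1 and 33.8 CPM in sgAAVS1 cells (−0.75, edgeR adjusted p = 2.74e-06), and H1-2 59.7, 64.7 and 74.0 CPM, against 93.3, 93.6 and 103 CPM (−0.55, edgeR adjusted p = 6.63e-05). Without sgERH cytoplasm CHX replicate 3, 5 members were called lower.

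In nuclei with CHX 1 of 34 members was higher (5.29% of all genes) and 0 were lower (3.68%, with 7 lower at an unadjusted p under 0.05 in edgeR, where 26.4% of all genes were, and 1 called by DESeq2). Summed with ENSG00000282988, H2AC7 was called lower (−1.08, edgeR adjusted p = 0.00194). The gene called singly was H4C3, at 1.37, 1.25 and 0.664 CPM in sgERH nuclei, against 0.207, 0.0375 and 0.213 CPM in sgAAVS1 nuclei (2.81, SE 0.87, edgeR adjusted p = 0.0136), and 0 members were called without sgAAVS1 nucleus CHX replicate 2, against 2 without sgAAVS1 nucleus CHX replicates 1 or 3 or sgERH nucleus CHX replicate 2. It lies under a mean of 1 CPM and is named because it was the single call. By smallest p among genes above that level, H2AC6 had 77.7, 79.8 and 93.8 CPM in sgERH nuclei, against 127, 132 and 139 CPM in sgAAVS1 nuclei (−0.67, SE 0.10, edgeR adjusted p = 2.22e-05), and H3C6 28.9, 30.9 and 31.6 CPM, against 23.7, 20.7 and 20.5 CPM (0.49, SE 0.11, edgeR adjusted p = 0.00115). These genes lay on opposite sides of their controls, and the members' median was −0.14, against 0.01 over all genes.

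The change of the ERH effect with CHX was tested directly. In the cytoplasm 18 of 38 members had a lower ERH effect with CHX than with DMSO and 0 a higher one, where 2.61% and 1.02% of genes were called (1 higher and 23 lower at an unadjusted p under 0.05 in edgeR, with 20.5% and 15.8% of all genes, and 0 and 18 in DESeq2). The members' median was −1.08, against 0.03 over all genes. Among members averaging at least 1 CPM the lowest values were those of H4C8 (−2.51, SE 0.14, edgeR adjusted p = 1.17e-08), H4C15 (−2.26, SE 0.28, edgeR adjusted p = 2.36e-05, and −1.32, edgeR adjusted p = 0.000795, with H4C14), H3C10 (−1.99, SE 0.19, edgeR adjusted p = 1.22e-06), H2BC15 (−1.84, SE 0.22, edgeR adjusted p = 1.83e-05) and H2BC18 (−1.80, SE 0.49, edgeR adjusted p = 0.0128). Below that level H2AC15 stood at −2.71 and H2BC7 at −2.30. Members with a long form made up 10 of the 18, of 12 tested, with a median of −1.54. In nuclei 9 of 34 members were lower and 0 higher, where 2.33% and 1.29% of genes were called (0 higher also at an unadjusted p under 0.05 and in DESeq2). They included H1-3 (−3.96, SE 0.86, edgeR adjusted p = 0.00372), H4C11 (−3.22, SE 1.07, edgeR adjusted p = 0.0435), H1-4 (−2.43, SE 0.78, edgeR adjusted p = 0.0353), H2BC15 (−1.46, SE 0.20, edgeR adjusted p = 7.94e-05) and H2AC6 (−1.34, SE 0.15, edgeR adjusted p = 1.62e-05). Summed with H4C12 the value of H4C11 was −0.75 and not called (edgeR adjusted p = 0.525), and with a length offset neither H4C11 nor H1-4 was called (edgeR adjusted p = 0.0824 and 0.0652). H4C11 lost its call without any of 9 of the 12 nuclear libraries and H1-4 without any of 7, and 5 members were called without sgERH nucleus CHX replicate 1. These contrasts hold the same DMSO libraries as the ERH and CHX comparisons above and are no independent evidence of either. Read as levels, H4C8 in cytoplasm had 17.9, 17.2 and 21.9 CPM in sgERH cells with CHX, against 7.47 to 8.15 CPM with DMSO, and 32.0, 30.1 and 33.8 CPM in sgAAVS1 cells with CHX, against 2.15 to 2.42 CPM with DMSO.

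The transcript estimates were then split at the stem-loop. Over the 39 members, transcripts past the stem-loop held 20.5% ± 0.865 of TPM in sgAAVS1 cytoplasm with CHX and 7.70% ± 0.370 with DMSO, and 35.2% ± 0.490 in sgAAVS1 nuclei with CHX and 16.6% ± 3.5 with DMSO (SD, n = 3). The summed estimates of both forms rose with CHX. Long forms summed to 528 TPM in sgAAVS1 cytoplasm with CHX and 43.0 TPM with DMSO, and forms ending at the stem-loop to 2044 TPM with CHX and 516 TPM with DMSO. The 26 members without an annotated long form have all their reads assigned to the form ending at the stem-loop. For those members the sums and shares here do not show where the captured RNAs ended. The loss of ERH went with 10.7% ± 0.987 of TPM in long forms in cytoplasm with DMSO, against 7.70% ± 0.370 in sgAAVS1 cells, without overlap. In nuclei the sgERH shares were lower, also without overlap, at 11.3% ± 1.01 against 16.6% ± 3.5 in sgAAVS1 nuclei with DMSO, and 25.3% ± 2.73 against 35.2% ± 0.490 with CHX. The members hold H2AC18 but not H2AC19, so these shares also depend on the split of reads between those copies. In nuclei with DMSO the forms ending at the stem-loop summed to 463 TPM in sgERH and 187 TPM in sgAAVS1 cells, and the long forms to 59.1 TPM and 36.1 TPM. Within the 12 members that have both forms the long share in sgAAVS1 cytoplasm was 45.0% ± 2.75 with CHX and 46.1% ± 3.68 with DMSO, which overlapped, while in sgAAVS1 nuclei it was 63.7% ± 3.64 with CHX and 42.3% ± 6.80 with DMSO, which did not. Between the guides it overlapped in both fractions under both treatments, at 42.5% ± 3.05 in sgERH and 46.1% ± 3.68 in sgAAVS1 cytoplasm with DMSO, 44.2% ± 4.63 in sgERH and 45.0% ± 2.75 in sgAAVS1 cytoplasm with CHX, 38.4% ± 3.66 in sgERH and 42.3% ± 6.80 in sgAAVS1 nuclei with DMSO, and 60.9% ± 3.46 in sgERH and 63.7% ± 3.64 in sgAAVS1 nuclei with CHX.

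H2AC6 had both forms in the cytoplasm, with a long share of 45.9% ± 4.43 with CHX and 36.2% ± 5.51 with DMSO in sgAAVS1 cells, and mostly long forms in nuclei. In sgAAVS1 cytoplasm its long forms averaged 158 TPM with CHX and 7.57 TPM with DMSO, and its short form 186 TPM with CHX and 13.4 TPM with DMSO. In sgAAVS1 nuclei its long forms averaged 204 TPM with CHX and 7.95 TPM with DMSO, and the short form 0 TPM with CHX and 1.92 TPM with DMSO. The short forms lie wholly inside longer ones over much of their length, so these splits are model estimates, and for some genes the long share varied widely between libraries of 1 group, as for H4C8 with 75.0% ± 43.3 in sgERH cytoplasm with DMSO.

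Spliced reads do not depend on that estimate. They were counted over 11 introns of 7 members, which lie across the stem-loop, beyond it or upstream of it. The intron that removes the stem-loop of H2BC5, an H2B gene (chr6:26158560-26170974), had 307, 342 and 312 spliced reads in sgERH cytoplasm with CHX, against 163, 102 and 163 with DMSO. In sgAAVS1 cytoplasm it had 504, 394 and 620 with CHX, against 102, 73 and 76 with DMSO. Per 1000000 counts this was 2.70 ± 0.388 in sgERH and 1.19 ± 0.245 in sgAAVS1 cytoplasm with DMSO, and 5.81 ± 0.901 and 8.28 ± 0.308 with CHX, so the order of the guides was opposite under the 2 treatments, each time without overlap. The intron of H2AC6 (chr6:26124634-26138053) had 308, 226 and 291 spliced reads in sgERH cytoplasm with CHX, against 47, 24 and 44 with DMSO, and in sgAAVS1 cytoplasm 227, 208 and 308 with CHX, against 15, 29 and 13 with DMSO. Per 1000000 counts this was 0.719 ± 0.153 in sgERH and 0.262 ± 0.0897 in sgAAVS1 cytoplasm with DMSO, without overlap, and 4.97 ± 0.983 and 4.07 ± 0.241 with CHX, with overlap, so the guides did not change order. The intron of H3C6 (chr6:26224306-26224901), which lies upstream of its stem-loop in the long form, had 59, 50 and 47 spliced reads in sgERH nuclei with DMSO, against 4, 10 and 16 in sgAAVS1 nuclei, or 1.37 ± 0.360 against 0.318 ± 0.200 reads per 1000000 counts. With CHX the H3C6 values were 98, 120 and 127 in sgERH nuclei, against 99, 60 and 47 in sgAAVS1 nuclei, and overlapped. The 3 introns of H2BC6 had 0 spliced reads in all libraries. Of the other 5, in H2BC4, H2BC11 and H2BC15, that of H2BC4 had the most, at 1.19 ± 0.110 reads per 1000000 counts in sgERH and 0.703 ± 0.255 in sgAAVS1 cytoplasm with DMSO, without overlap, and 2.12 ± 0.421 and 2.52 ± 0.166 with CHX, with overlap.

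**Figure D4:**
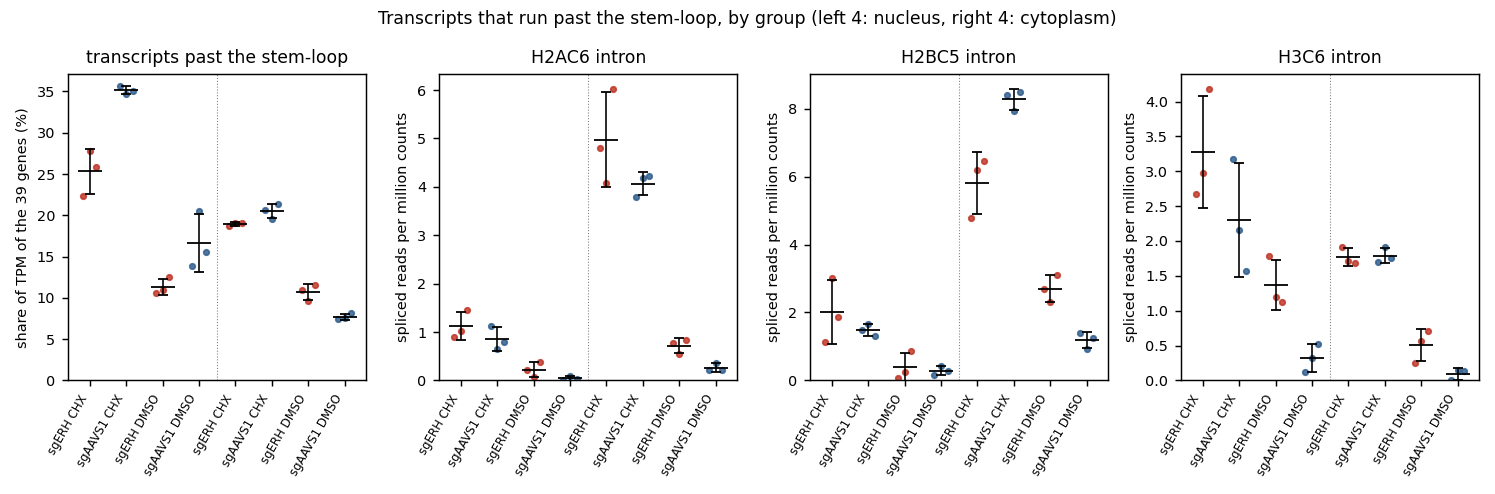
Share of the 39 members' TPM on transcripts that run past the stem-loop, in percent, and spliced reads per 1000000 counts over introns of H2AC6, H2BC5 and H3C6 (vertical axes) in the 8 groups, with 1 point per library and mean ± SD as bars, sgERH in red and sgAAVS1 in blue. The long share is highest in sgAAVS1 nuclei with CHX (35.2%) and lowest in sgAAVS1 cytoplasm with DMSO (7.70%).

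Genes that act on histone mRNA, and other histone genes, were compared from the same fits. In cytoplasm 13.6% of all genes were called higher and 6.31% lower with CHX, and 9.30% and 2.16% with ERH loss in DMSO. Of 20 factors of histone mRNA transcription, 3′ end formation and decay, 0 were called with ERH loss in cytoplasm with DMSO in edgeR or DESeq2. At an unadjusted p under 0.05 in edgeR 4 were higher and 13 lower. The share of all genes at that p is not given here, and the list's median log2 fold change was −0.30, against 0.04 over all genes. SLBP, the stem-loop binder, had a log2 fold change of −0.30 in sgERH cytoplasm (edgeR adjusted p = 0.000319), under the fold limit. With CHX in cytoplasm TUT7, which adds uridines to histone mRNA, rose by 1.86 and CASP8AP2, a factor of histone locus bodies, by 1.22 on the log2 scale. Of 10 variant genes made outside S phase, which have ordinary polyadenylated mRNAs, 9 were tested. In cytoplasm with CHX 2 were higher, among them H1-10 (1.32), and 1 lower, H3-3A (−1.33), and with ERH loss in DMSO H2AZ1 (−1.04) and MACROH2A2 (−1.02) were lower and none higher. H2AX, whose gene makes both a stem-loop and a polyadenylated mRNA, had 114, 104 and 124 CPM in sgERH cytoplasm with DMSO, against 254, 233 and 250 CPM in sgAAVS1 cytoplasm (−1.11, edgeR adjusted p = 4.76e-08). Its libraries were thus on the other side of the controls from most members. Of 13 histone chaperones ASF1B (−1.37) and ATRX (−1.02) were lower with ERH loss. Of 17 genes of nuclear RNA decay and polyadenylation 0 were called in edgeR or DESeq2, with 13 lower and 0 higher at an unadjusted p under 0.05 in edgeR. The median of these 17 genes was −0.39, against 0.04 over all genes. Among 12 annotated replication-dependent histone genes outside the list, 7 were tested in cytoplasm, of which 5 rose with CHX and 4 with ERH loss in DMSO and none fell.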

How the data were processed

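Poly(A)-enriched RNA of 24 libraries (8 groups of 3) was sequenced by the authors, who aligned reads to GRCh38 with Ensembl annotation in the nf-core/rnaseq pipeline (fastp, STAR, salmon). The deposited transcript tables hold estimated counts, TPM values and effective lengths (a signal unit, in bases), and the deposited directional IRFinder-S tables hold intron read counts, coverage depth and intron retention fractions; of these the spliced read counts, boundary read counts and depth were read. Library totals lay between 27849344 and 79450333 counts.

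Estimated transcript counts were summed per gene and rounded. Genes were kept by filterByExpr (minimum count 10), scaled by TMM and tested with edgeR 4.0.16 in R 4.3.3 (quasi-likelihood, 1 coefficient per group, 12 libraries of a fraction, or all 24 where fractions were compared), with Benjamini-Hochberg adjustment over all genes tested. DESeq2 1.42.0 was an alternative. CPM values use TMM within a fraction, and over all libraries for nucleus against cytoplasm. Members and lists were chosen with earlier results of these data known. Per-library values were given for the 4 members with the highest TPM and, per comparison, for up to 5 called members in each direction (up to 3 by smallest p where none was called), if they averaged at least 1 CPM. Stem-loops (6-base stem, 4-base loop) were sought within 400 bases after the stop codon in the GENCODE transcripts on GRCh38. On simulated data with 15828 genes the cytoplasmic DMSO test recovered 80.4% of genes changed by 1.5 and 91.9% of those changed by 2.5 on the log2 scale. The changed genes were drawn from all genes that passed the filter. These shares therefore do not hold for members with few counts or with reads split between near-identical copies. Same-numbered libraries deviated together most for ERH loss in cytoplasm with DMSO (r 0.156 to 0.231 over 3 pairs). A replicate block left 10 members higher and 2 lower there. For ERH loss with CHX r was 0.0947 to 0.136 in cytoplasm and −0.0304 to 0.163 in nuclei. Nuclear and cytoplasmic libraries with 1 running number in the sample descriptions were taken as 1 culture, and a block by culture was tried, after seeing the data, for comparisons of fractions. Intervals cover counting error only. The value of 1 gene outside the members is not reported here.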

Additional observations from a re-analysis of the deposited data

Results flagged for a closer look

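In 19 cases a named histone gene differed between 2 groups under the same contrast, by an edgeR interaction term with an adjusted p of at most 0.05. Each value is the difference of 2 log2 fold changes, the errors and adjusted p-values stand in the report, and no cause was tested.

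For CHX over DMSO in control cells, nucleus minus cytoplasm, the differences were 2.61 for H4C11, −1.96 for H4C15 and −1.35 for H3C6. For sgERH over sgAAVS1 with DMSO, nucleus minus cytoplasm, they were 3.99 for H4C11, 2.68 for H1-3, 2.09 for H1-4, 1.83 for H2AC11, 1.49 for H2AC18 and −1.47 for H4C15. H4C11 and H4C15 each share over 90% of their sequence words with a copy, and H4C11 had 0 CPM in 2 of 3 sgAAVS1 nuclear DMSO libraries. Summed with H4C12 the values of H4C11 were 0.70 (not called) and 1.59, and summed with H4C14 those of H4C15 were −1.05 and −0.74 (not called).

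For sgERH over sgAAVS1 in cytoplasm, CHX minus DMSO, the differences were −2.51 for H4C8, −2.26 for H4C15, −1.99 for H3C10, −1.84 for H2BC15 and −1.80 for H2BC18. In nuclei they were −3.96 for H1-3, −3.22 for H4C11, −2.43 for H1-4, −1.46 for H2BC15 and −1.34 for H2AC6. Summed with their copies, H4C15 in cytoplasm stood at −1.32 and H4C11 in nuclei at −0.75 (not called). H2BC15 was thus called in both fractions, from separate libraries of what were taken as the same cultures, so the calls are not independent.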

How the results depend on the processing

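No result reversed its direction. RLE scaling, no low-count filter, DESeq2, a length offset, a replicate block, fits of only the libraries compared, leaving out each library and, added after seeing the data, sums over near-identical copies and a block for both fractions of a culture were run, and of 808 values of named genes 756 kept their side of the threshold and 52 did not, of which 39 of 432 came from leaving out a library, 5 from summed copies, 3 from the length offset, 2 from DESeq2, 2 from fits of only the libraries compared and 1 from the block.

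Counts that moved were these. For CHX by fraction, members more positive in nuclei were 1 as reported, 2 with RLE scaling, 3 with no filter, 2 with DESeq2, 2 with only the libraries compared, 0 with copies summed and 1 to 2 leaving out libraries, and members more negative were 3 as reported and 5 with the length offset. For ERH loss in nuclei with DMSO, members lower were 0, 2 with no filter and 0 to 1 leaving out libraries. For ERH by fraction, members more positive were 5, 3 with only the libraries compared and 2 to 5 leaving out libraries, and members more negative 3, 1 and 1 to 4. For ERH loss in cytoplasm with CHX, members lower were 2 and 2 to 5 leaving out libraries, and summing copies added a call of H2AC7. In nuclei with CHX members higher were 1 and 0 to 2, and members lower 0, 1 with no filter, 1 with DESeq2, 1 with copies summed and 0 to 1. For ERH by CHX in nuclei, members lower were 9 and 5 to 10. The causes were not tested. The larger counts moved less on leaving out libraries, with 31 to 33 of CHX in cytoplasm, 25 to 28 in nuclei, 7 to 12 members higher for ERH loss in cytoplasm and 8 to 12 in nuclei.

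Under the replicate block the counts were 33 for CHX in cytoplasm, 26 in nuclei, 10 higher and 2 lower for ERH loss in cytoplasm with DMSO, 10 higher in nuclei, and 18 and 8 lower for ERH by CHX in cytoplasm and nuclei. Of the named genes H4C11 lost its call there (ERH by CHX in nuclei, edgeR adjusted p = 0.0537). Outside ERH loss in cytoplasm with DMSO same-numbered libraries deviated together less, and the labels do not say what a shared number marks. The block by culture left the 23 lower and 3 higher members of nucleus against cytoplasm, the 5 and 3 of ERH by fraction and the 1 and 3 of CHX by fraction, and ended no call of a named gene. H2AC18 in nuclei with ERH loss had an adjusted p of 0.0944 in DESeq2 (log2 fold change 2.24). What limits these results is the split of reads between near-identical copies and, in nuclei, the depth, since 17 of 34 members averaged under 10 counts in control DMSO libraries.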
